A study of Xenopus laevis with 20 samples.

Results

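The transcripts described here encode proteins that make, inactivate, carry or sense retinoic acid. They are the array's probe sets annotated in the platform table as rdh10, dhrs3, aldh1a2, crabp2, cyp26a1, cyp26c1, rara or rarg, with the suffix of the homeologous copy (.L or .S, the paired subgenomes of the allotetraploid frog Xenopus laevis) removed. The rule found 11 probe sets for 10 homeologous copies of the 8 genes, among 15491 gene probe sets on the array. Both copies were represented for cyp26a1 and rdh10, the .L copy alone for crabp2, aldh1a2, dhrs3 and rara, and the .S copy alone for cyp26c1 and rarg, while aldh1a2.L had 2 probe sets, called first (the one with the higher mean, which summarises the gene) and second below. The RefSeq gene table of the v10.1 Xenopus laevis assembly holds 15 copies of the 8 genes and no rarg.L. All 11 probe sets had a log2 value above 4 in each of the 20 arrays, so none was lost to the filter on low values, which required a value above 4 in at least 5 arrays and left 10435 probe sets for testing.

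Retinoic acid is made from vitamin A in successive oxidation steps: retinol dehydrogenases such as rdh10 form retinaldehyde, and retinaldehyde dehydrogenases such as aldh1a2 oxidise it to retinoic acid. The reductase dhrs3 returns retinaldehyde to retinol, the cytochrome P450 enzymes of the Cyp26 family break retinoic acid down, and crabp2 carries it to nuclear receptors, of which rara and rarg are members. In the vertebrate gastrula and neurula, retinoic acid made in the trunk patterns the neural plate along its length, and Cyp26 enzymes keep the anterior neural plate low in it.

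The arrays profiled whole Xenopus laevis embryos at stage 13, the start of neurulation, after manipulation of Xrx1, the homeobox transcription factor (also called rax) of the anterior neural plate and eye field. There were 10 arrays labelled control (uninjected embryos), 5 labelled as injected with Xrx1 mRNA and 5 labelled as injected with a morpholino, an antisense oligonucleotide against Xrx1. Per the sample labels, RNA came from 3 embryos per array, injections went into both dorsal blastomeres of 4-cell embryos, and both injected groups received 400 pg of GFP as a tracer, with 50 pg of Xrx1 mRNA or with the morpholino. The morpholino amount is given as 1 pM in the labels and as 10 pg in the treatment protocol, and the series' design text gives 50 ng, 400 ng and 0.5 pmol and speaks of single embryos, so no dose is treated as settled. Uninjected embryos do not control for injection or for GFP. The labels do not say that the embryos of different arrays had different parents, and the tests below are about array-to-array spread, which may be partly technical. Because whole embryos were profiled, fewer cells that express a gene and less RNA per cell cannot be told apart.

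The GFP tracer, read by a control probe set of the array, went against the labels in 8 arrays. It was at log2 3.04 to 3.32 in controls 1 to 5 and at 13.1 to 14.5 in the 5 mRNA arrays, but it was at 13.8 to 14.5 in controls 6 to 9 and at 2.80 to 2.95 in morpholino arrays 1 to 4. Control 10 was at 2.89 and morpholino 5 at 14.8, the reverse of their neighbours. The arrays keep their labels below, with "the array labelled" understood for each name, and the members' differences without those 8 are given in a paragraph of their own. The direction of such a comparison is a direction between labels only. Replicates within a set of 5 arrays correlated at 0.953 to 0.995 over all probe sets, the array's control probe sets included, and no array duplicated another. The embryos' tissues were present in every set by their markers: mean log2 levels over measured copies were 7.36 to 7.94 for 4 neural plate genes, 12.0 to 13.2 for 4 epidermal genes, 8.69 to 9.14 for 4 paraxial mesoderm genes and 6.82 to 7.09 for 4 endoderm genes. The mean of 6 anterior neural and eye field genes was 7.30 ± 0.43 (SD, n = 5) in controls 1 to 5, 6.21 ± 0.51 in the mRNA arrays, 5.84 ± 0.26 in controls 6 to 10 and 6.37 ± 0.61 in the morpholino arrays. These genes were otx2, six3, pax6, hesx1, fezf2 and rax, so the mean includes the manipulated gene itself. Whether the rax probe sets read the injected mRNA was not tested.

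**Figure D1:**
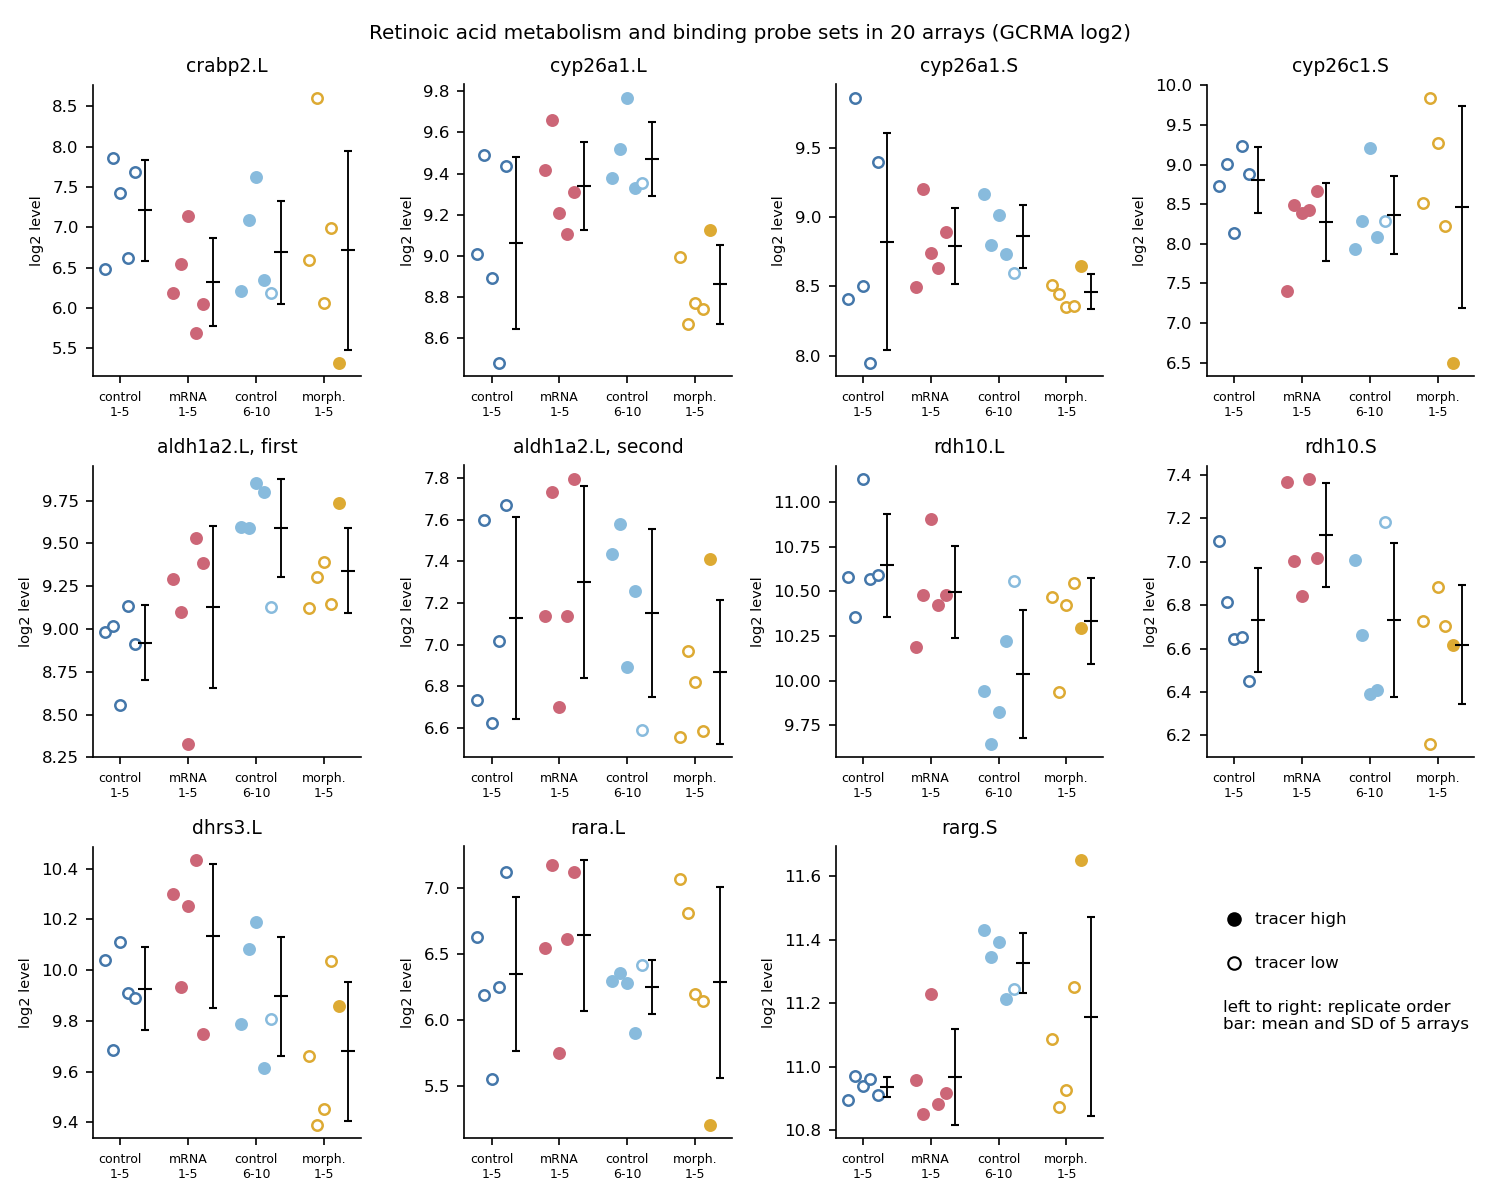
Deposited log2 level of each of the 11 probe sets (vertical axis, a separate scale per panel) in the 20 arrays, by label and replicate number, with filled points for high and open points for low tracer, and bars for the mean ± SD of 5 arrays. For most probe sets the sets of 5 arrays overlap, and rarg.S in controls 6 to 10 lies above all of controls 1 to 5.

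In the main fits no enzyme of retinoic acid synthesis differed past the test between the labels. The differences that passed there lay between the control sets. For rdh10.L, one of the retinol dehydrogenases that start synthesis, log2 levels in controls 1 to 5 were 10.58, 10.36, 11.13, 10.57 and 10.59. In controls 6 to 10 they were 9.94, 9.65, 9.82, 10.22 and 10.56. All of controls 6 to 9 lay below all of controls 1 to 5, and control 10, the one with low tracer in its set, overlapped them. The share of all probe sets for which controls 6 to 9 separated from controls 1 to 5 was not counted. The mRNA arrays read 10.19, 10.48, 10.91, 10.43 and 10.48. The morpholino arrays read 10.47, 9.94, 10.42, 10.55 and 10.29. Both injected groups fell within the combined range of the controls. The rdh10.L probe set was lower in controls 6 to 10 than in controls 1 to 5 by limma, with a difference of -0.61 ± 0.20 (SE; adjusted p = 0.046, Benjamini-Hochberg over all probe sets tested), which is a 1.52-fold difference in linear signal. That call was at the edge of the threshold: it held without control 2 or control 10 and was lost without any other single control, where the difference ran from -0.65 to -0.49. Against all 10 controls, rdh10.L differed by 0.15 ± 0.20 in the mRNA arrays and by -0.01 ± 0.20 in the morpholino arrays, with limma adjusted p of 0.687 and 0.993.

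The other copy of the gene, rdh10.S, was the synthesis enzyme that came nearest to a difference with the mRNA. Its log2 levels were 7.10, 6.81, 6.65, 6.66 and 6.45 in controls 1 to 5. The same-numbered mRNA arrays gave 7.37, 7.0, 6.84, 7.38 and 7.02. Each mRNA array was above the control with its number, by 0.19 to 0.73, although the ranges of the groups overlapped because control 1 was high. Controls 6 to 10 read 7.01, 6.66, 6.39, 6.41 and 7.18. The morpholino arrays read 6.73, 6.16, 6.88, 6.70 and 6.62. The mean of the mRNA arrays was 0.39 ± 0.16 above that of all 10 controls (95% interval 0.07 to 0.71), with overlapping ranges. This did not pass limma's threshold (adjusted p = 0.168). With array weights it was 0.42 and passed (limma adjusted p = 0.0498). Against the morpholino arrays the difference was 0.50 ± 0.18 (0.13 to 0.88), short of the threshold (limma adjusted p = 0.063). It passed in that comparison under quantile normalisation at 0.59 and under median centring at 0.60, scalings that take account of an array-wide median 0.10 lower in the mRNA arrays.

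The reductase dhrs3.L, which turns retinaldehyde back into retinol and whose gene is known to be induced by retinoic acid, was highest with the mRNA and lowest with the morpholino in group mean, without passing the test. Control log2 levels were 10.04, 9.69, 10.11, 9.91 and 9.89 for numbers 1 to 5. They were 9.79, 10.08, 10.19, 9.62 and 9.81 for numbers 6 to 10. The mRNA arrays gave 10.30, 9.93, 10.25, 10.43 and 9.75. Of these, mRNA 1, 3 and 4 lay above every control and the other 2 lay among them. The morpholino arrays gave 9.66, 9.39, 9.45, 10.04 and 9.86. Morpholino 2 and 3 were below every control. In mean level the mRNA arrays were 0.22 ± 0.14 above all controls (limma adjusted p = 0.375) and the morpholino arrays were at -0.23 ± 0.14 (0.636). The difference between the injected groups was 0.45 ± 0.16 (95% interval 0.12 to 0.79; adjusted p = 0.063), and under quantile normalisation it passed at 0.54 and under median centring at 0.55. It did not pass with the array set as a block. The sets are controls 1 to 5 with the mRNA arrays, and controls 6 to 10 with the morpholino arrays. With that block each injected group is taken relative to the controls of its own set, which is another difference. Leaving out the arrays with discordant tracer leaves morpholino 5 alone in its group. That array was then -0.05 from the controls, and the mRNA arrays were 0.27 above it.

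For aldh1a2.L, the main retinoic acid synthesising enzyme of the early vertebrate trunk, the first probe set gave 8.98, 9.02, 8.56, 9.13 and 8.91 in controls 1 to 5. It gave 9.59, 9.59, 9.85, 9.80 and 9.13 in controls 6 to 10. Every array of the second control set except control 10, at 9.13 level with the top of the first, was above the first. How many of all probe sets separated in that way was not counted. The mRNA arrays read 9.29, 9.10, 8.33, 9.53 and 9.39. The morpholino arrays read 9.12, 9.30, 9.39, 9.15 and 9.74. Both overlapped each of the control sets, and mRNA 3 was the lowest of all 20 arrays. The level was higher in controls 6 to 10 than in controls 1 to 5 by 0.67 ± 0.17 (1.59-fold; limma adjusted p = 0.015), and this call held in each of the 10 fits without 1 control. The second aldh1a2.L probe set ranged from 6.62 to 7.67 in controls 1 to 5 and from 6.59 to 7.58 in controls 6 to 10, and differed between them by 0.02 ± 0.26 (adjusted p = 0.963). The 2 probe sets of this gene therefore disagreed. Their within-array log2 ratio was 0.65 higher in controls 6 to 10 (two-sided exact permutation p = 0.048, 0.286 after adjustment over 12 such tests), so the disagreement itself did not pass. Against all controls, neither probe set differed in an injected group past the threshold. The differences for the first and second probe set were -0.13 ± 0.22 and 0.16 ± 0.22 with the mRNA, and 0.08 ± 0.22 and -0.27 ± 0.22 with the morpholino. Between the mRNA and morpholino arrays the second probe set was at 0.43 ± 0.25 (limma adjusted p = 0.241). Of the alternatives it passed there only with the replicate number as a block.

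The carrier crabp2.L was lower in every mRNA array than in the control with the same number, without passing the test across the array. This cytoplasmic retinoic acid binding protein delivers retinoic acid to its nuclear receptors. Controls 1 to 5 had log2 levels of 6.48, 7.85, 7.43, 6.62 and 7.68. The mRNA arrays of the same numbers had 6.19, 6.55, 7.14, 5.69 and 6.04. The paired differences ran from -1.64 to -0.29, and the groups still overlapped, since mRNA 2 and mRNA 3 were above control 1. The mean difference was -0.89 ± 0.33, a 1.86-fold difference in signal (95% interval -1.62 to -0.17; limma adjusted p = 0.635), and the blocked fit, with pairs by replicate number, gave -0.89 ± 0.21 (-1.39 to -0.39; adjusted p = 0.268). An exact sign-flip test over the 5 pairs gave p = 0.0625 before adjustment, the smallest that 5 pairs allow. Controls 6 to 10 read 6.21, 7.09, 7.62, 6.34 and 6.18, overlapping both the mRNA arrays and controls 1 to 5. The morpholino arrays read 6.59, 8.61, 6.06, 7.0 and 5.32, the widest spread of the 4 sets. Morpholino 2 was the highest of the 20 arrays and morpholino 5, the morpholino array with high tracer, the lowest. Against all 10 controls the difference was -0.63 ± 0.41 with the mRNA (adjusted p = 0.392) and -0.24 ± 0.41 with the morpholino (0.884).

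**Figure D2:**
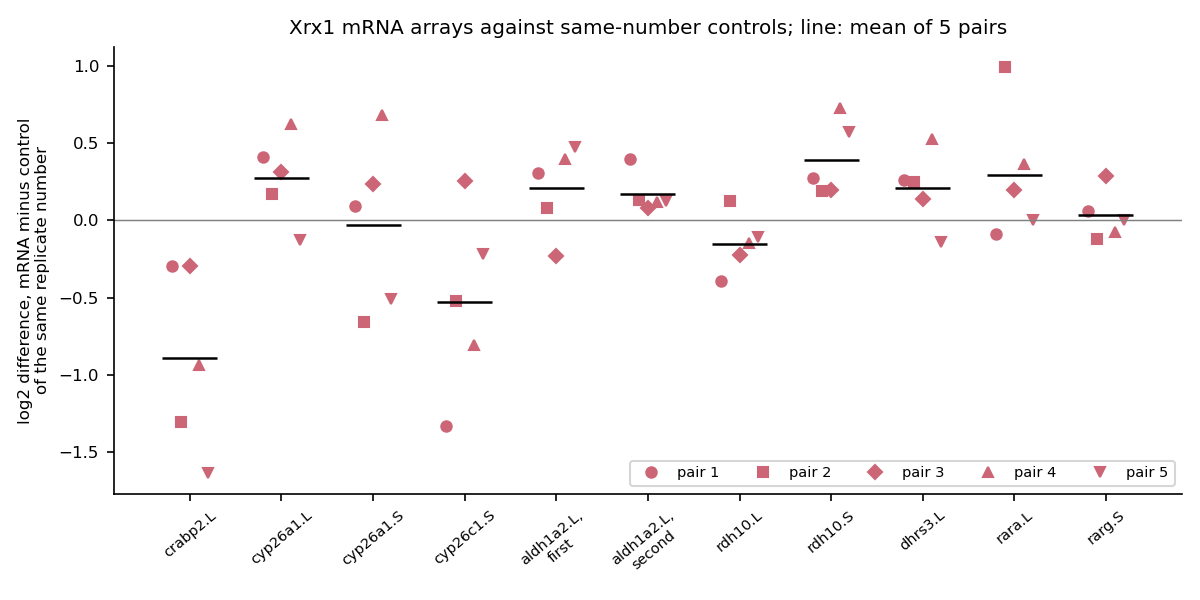
Log2 level in each mRNA array minus that in the control with the same replicate number, for the 11 probe sets (points, 5 pairs each) with the mean. All 5 crabp2.L points lie below 0, and all 5 points of rdh10.S and of the second aldh1a2.L probe set lie above 0.

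A measure of RNA integrity moved with crabp2.L in the first 10 arrays, and with some other members. The log2 difference between the 3′ and 5′ probe sets of the array's actin and Gapd controls, which is larger where RNA is more degraded or cDNA shorter, was 1.64 ± 1.27 in controls 1 to 5 and 2.68 ± 0.81 in the mRNA arrays (n = 5 each). Over controls 1 to 5 and the mRNA arrays, crabp2.L correlated with it at r = -0.91. Over controls 6 to 10 and the morpholino arrays, r was 0.13, and over all 20 arrays it was -0.37 with rho = -0.34 (permutation p adjusted over 88 relations = 0.243 and 0.344). For rdh10.S, which was higher in every mRNA array than in its paired control, r with that measure was 0.57 in the first 10 arrays, 0.17 in the other 10 and 0.53 over all 20, with rho = 0.53 (adjusted permutation p = 0.068 and 0.078). For cyp26a1.S, r was -0.64 and -0.65 within the sets and -0.46 over all arrays, with rho = -0.47 (0.139 and 0.129). The level of crabp2.L also followed the mean of the anterior neural and eye field markers in the first 10 arrays, at r = 0.90, against 0.29 in the other 10 and 0.53 over all 20 (adjusted permutation p = 0.068). The part of these measures in the values of crabp2.L, rdh10.S and cyp26a1.S was not tested.

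The enzymes that degrade retinoic acid were cyp26a1, in both copies, and cyp26c1.S. In the RefSeq gene table of the v10.1 Xenopus laevis assembly the 2 genes are immediate neighbours in both subgenomes, with 0 genes starting between them. For cyp26a1.L, log2 levels in controls 1 to 5 were 9.01, 9.49, 8.90, 8.48 and 9.44. Controls 6 to 10 gave 9.38, 9.52, 9.77, 9.33 and 9.36. The mRNA arrays, at 9.42, 9.66, 9.21, 9.11 and 9.31, lay within the range of the controls. The morpholino arrays, at 8.99, 8.67, 8.77, 8.74 and 9.13, sat in the lower part of the control range. They lay within the range of controls 1 to 5 and below every one of controls 6 to 10. The share of all probe sets that separated from controls 6 to 10 was not counted. The morpholino difference against all controls was -0.41 ± 0.17 (95% interval -0.76 to -0.05; limma adjusted p = 0.535) and the mRNA difference was 0.07 ± 0.17 (0.836). Between the injected groups cyp26a1.L was 0.48 ± 0.20 higher with the mRNA, short of the threshold (adjusted p = 0.096). Under median centring that difference was 0.58 and passed.

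For the .S copy, cyp26a1.S, levels ranged from 7.95 to 9.86 in controls 1 to 5, from 8.60 to 9.17 in controls 6 to 10, from 8.50 to 9.20 in the mRNA arrays and from 8.35 to 8.65 in the morpholino arrays. The 5 morpholino values were the tightest of the 4 sets (SD 0.12, against 0.78 in controls 1 to 5), and their difference from all controls was -0.38 ± 0.22 (limma adjusted p = 0.627). The copies were not shown to differ in their response: the within-array log2 ratio of .L to .S was 0.42 ± 0.37 (SD, n = 10) in all controls, 0.55 ± 0.21 in the mRNA arrays and 0.40 ± 0.10 in the morpholino arrays (n = 5 each), with adjusted exact permutation p of 0.726 and 0.913. These p-values do not show that the ratios were equal, and cross-hybridisation between the homeologous copies was not tested.

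For cyp26c1.S, controls 1 to 5 read 8.74, 9.01, 8.13, 9.24 and 8.88. The mRNA arrays read 7.41, 8.49, 8.39, 8.43 and 8.66. In 4 of 5 pairs the mRNA array was below its control, and the mean difference was -0.53 ± 0.26 (95% interval -1.10 to 0.05; limma adjusted p = 0.665; with the replicate block, adjusted p = 0.332). The value of mRNA 1, 7.41, stood apart from the other 4. Controls 6 to 10 read 7.94, 8.29, 9.20, 8.09 and 8.29. The morpholino arrays read 8.51, 9.84, 9.27, 8.22 and 6.50. The span of the morpholino arrays, from 6.50 in the array with high tracer to 9.84, was wider than that of all the other 15 arrays. Against all controls the differences were -0.31 ± 0.38 with the mRNA (adjusted p = 0.679) and -0.11 ± 0.38 with the morpholino (0.944).

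The receptors showed no difference with either injection that passed the test. For rara.L, the alpha retinoic acid receptor, log2 levels ranged from 5.55 to 7.13 in controls 1 to 5, from 5.90 to 6.42 in controls 6 to 10, from 5.75 to 7.18 in the mRNA arrays and from 5.20 to 7.07 in the morpholino arrays. The differences from all controls were 0.34 ± 0.28 with the mRNA (limma adjusted p = 0.500) and -0.01 ± 0.28 with the morpholino (0.992). The gamma receptor rarg.S read 10.90, 10.97, 10.94, 10.96 and 10.91 in controls 1 to 5. It read 11.43, 11.35, 11.39, 11.21 and 11.25 in controls 6 to 10. The second control set lay wholly above the first, by 0.39 ± 0.10 (1.31-fold; adjusted p = 0.021). This was relative to an array-wide median 0.14 higher in controls 6 to 10, and the call was lost when that shift was taken out, at 0.27 under quantile normalisation and 0.25 under median centring, and also without control 6, at 0.36. The mRNA arrays gave 10.96, 10.85, 11.23, 10.88 and 10.92. The morpholino arrays gave 11.09, 10.87, 10.93, 11.25 and 11.65. Apart from mRNA 3, the mRNA arrays sat at 10.85 to 10.96, beside the first control set, and morpholino 5 was the highest of the 20 arrays. The differences from all controls were -0.16 ± 0.14 with the mRNA (adjusted p = 0.515) and 0.03 ± 0.14 with the morpholino (0.964).

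Read as a group, the retinoic acid genes gave 0 calls with adjustment in the comparisons between labels. Against all controls, 0 of 11 probe sets had a limma adjusted p under 0.05 with the mRNA, where 0% of all tested probe sets did, and 0 of 11 with the morpholino, where again 0% did. At an unadjusted p under 0.05 the counts were 1 of 11 (rdh10.S) with the mRNA against 20.4% of all probe sets, and 1 of 11 (cyp26a1.L) with the morpholino against 8.89%. No member had ranges that separated from all controls, where 0.412% of probe sets did with the mRNA and 0.0575% with the morpholino. Between mRNA and morpholino arrays 0 of 11 passed with adjustment against 13.3%, 3 of 11 without it (cyp26a1.L, rdh10.S and dhrs3.L, all higher with the mRNA) against 33.3%, and 0 of 11 had separate ranges against 15.5%. The median difference over the 11 in that comparison was 0.33, beside -0.05 over all tested probe sets. With all controls as the reference, the medians over the 11 were 0.07 with the mRNA and -0.11 with the morpholino, beside -0.00 and 0.04 over all tested probe sets.

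The comparison of the mRNA arrays with controls 1 to 5 drew on none of the 8 discordant arrays. In it 0 of 11 passed with adjustment, where 0% of all probe sets did, 2 of 11 (crabp2.L and rdh10.S) passed without it against 7.78%, and 0 of 11 had separate ranges against 1.06%. In the fit with a replicate block 0 of 11 passed with adjustment against 0.0671%, or 7 probe sets, and 3 of 11 (crabp2.L, cyp26c1.S and rdh10.S) passed without it against 14.6%. One probe set of 11, crabp2.L, was lower in 5 of 5 pairs, against 5.63% of all, and 2 of 11 were higher in 5 of 5 pairs (rdh10.S and the second aldh1a2.L probe set, by 0.08 to 0.40), against 7.89%. The median over the 11 was 0.17, beside 0.03 over all tested probe sets.

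**Figure D3:**
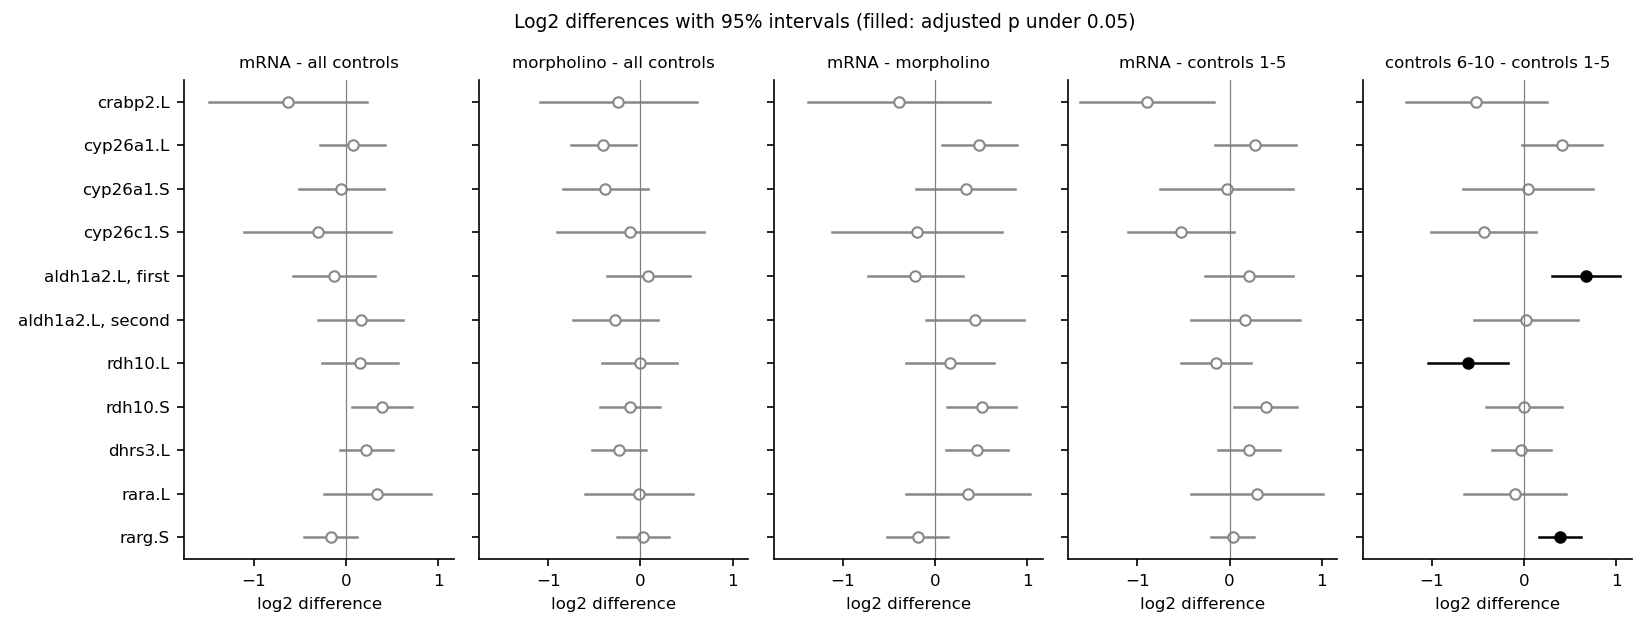
Difference in mean log2 level with its 95% limma interval (horizontal axis) for each probe set in the 5 comparisons. The probe sets with an adjusted p under 0.05 are the first of aldh1a2.L, rdh10.L and rarg.S, each between the control sets only.

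Between the control sets 3 of 11 passed with adjustment, where 23.1% of all probe sets did, the same 3 passed without it against 37.1%, and 1 of 11 (rarg.S) had separate ranges against 17.2%. The 3 of 11, or 27.3%, is near the share of the whole array, and the labels name no difference between controls 1 to 5 and controls 6 to 10, so the difference between sets, the tracer and any other unlabelled factor cannot be told apart. Of the 3, aldh1a2.L and rarg.S were higher and rdh10.L was lower in controls 6 to 10. The median over the 11 was -0.00, beside 0.08 over all tested probe sets.

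Within the second 10 arrays, the tracer divided the arrays differently from the labels, and for most members the arrays of high and low tracer overlapped. In controls 6 to 9 and morpholino 5, where it was high, the first aldh1a2.L probe set averaged 0.50 and cyp26a1.S 0.42 log2 units above control 10 and morpholino 1 to 4, where it was low, and for these 2 of 11 probe sets the arrays of high and low tracer did not overlap, where 5.67% of all tested probe sets did not. For the other 9 they overlapped. The mean difference, high minus low, was 0.61 for the second aldh1a2.L probe set, 0.52 for cyp26a1.L, 0.33 for rarg.S, 0.24 for dhrs3.L, -0.11 for rdh10.S, -0.37 for crabp2.L, -0.40 for rdh10.L, -0.52 for rara.L and -0.82 for cyp26c1.S. In the first 10 arrays, where tracer and label go together, 0 of 11 separated, where 1.06% of all tested probe sets did. These values are a description, since tracer state was read from the arrays and is not a labelled group.

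Without the 8 discordant arrays the morpholino label rests on morpholino 5 alone and the control label on controls 1 to 5 and 10. In that fit 0 of 11 passed in the mRNA arrays against all controls, as did 0% of all probe sets, and rdh10.S was at 0.32 ± 0.16 (limma adjusted p = 0.670), crabp2.L at -0.72 ± 0.34 (0.645) and dhrs3.L at 0.23 ± 0.15 (0.715). Of the members, cyp26c1.S alone passed elsewhere, 1 of 11 in each of 2 comparisons where 4.74% (morpholino against controls) and 7.28% (mRNA against morpholino) of all probe sets passed. Its difference was -2.22 ± 0.45 between morpholino and controls (adjusted p = 0.022), and it was 1.78 ± 0.46 higher with the mRNA than with the morpholino (0.038). The second of these has the opposite sign to the difference over all arrays, -0.19 ± 0.44, and both come from the single reading of 6.50 in morpholino 5, which was assumed to vary like the other arrays. Nothing else passed with the morpholino, where crabp2.L was at -1.73 ± 0.61 (0.121), rarg.S at 0.66 ± 0.21 (0.084) and cyp26a1.L at 0.02 ± 0.34 (0.983). Between control 10 and controls 1 to 5 0 of 11 passed, against 0.498% of all probe sets, and the 3 calls of the full control sets were lost, at 0.20 ± 0.26 for the first aldh1a2.L probe set, -0.09 ± 0.31 for rdh10.L and 0.31 ± 0.19 for rarg.S.

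Some members varied together across the 20 arrays. An opposite relation was seen for the first aldh1a2.L probe set and rdh10.L, which had Pearson's r = -0.79 and Spearman's rho = -0.81 (permutation p adjusted over 55 pairs of members = 0.0019 and 0.0014). It was -0.80 within the first 10 arrays, -0.61 within the second 10, and -0.67 without the 2 arrays farthest from the median. For the second aldh1a2.L probe set and rdh10.L the relation did not pass, at r = -0.36 and rho = -0.31 (adjusted permutation p = 0.461 and 0.638). Within the sets its r was -0.58 and -0.69. The copies of cyp26a1 varied together, with r = 0.76 and rho = 0.83 over all arrays (adjusted permutation p = 0.0019 and 0.0011), r of 0.80 and 0.84 within the sets, and 0.69 without the 2 farthest arrays. Levels of crabp2.L and rdh10.S ran in opposite directions at r = -0.63 and rho = -0.60 (adjusted permutation p = 0.038 and 0.067), with r of -0.81 and -0.64 within the sets. For cyp26a1.S and the second aldh1a2.L probe set r was 0.65 and rho 0.67 (adjusted permutation p = 0.027 and 0.030), with r of 0.68 and 0.59 within the sets. For crabp2.L and cyp26c1.S r was 0.62 and rho 0.43 (adjusted permutation p = 0.038 and 0.392), with r of 0.31 and 0.77 within the sets. The 2 probe sets of aldh1a2.L had r = 0.33 and rho = 0.24 over all arrays (adjusted permutation p = 0.504 and 0.787), and r of 0.51 and 0.73 within the sets. The arrays share labels, sets and preprocessing, so these relations are not independent of the group differences above.

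**Figure D4:**
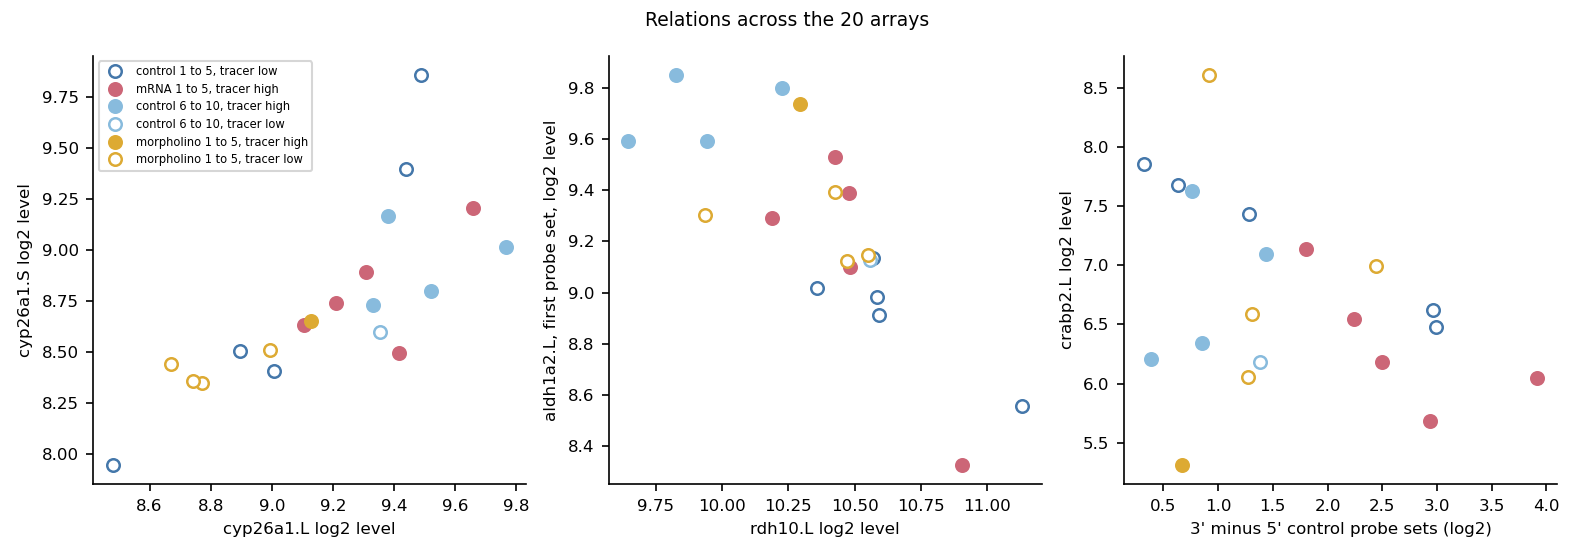
Log2 levels of pairs of members in the 20 arrays, and of crabp2.L against the 3′ minus 5′ measure of RNA integrity, with colours for the label and filled points for high tracer. The first aldh1a2.L probe set and rdh10.L run in opposite directions (r = -0.79), and cyp26a1.L and cyp26a1.S run together (r = 0.76).

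Levels of several members followed the tissue markers of the embryo, over 88 relations computed. The first aldh1a2.L probe set had r = -0.82 and rho = -0.85 with the mean of the anterior neural and eye field markers (adjusted permutation p = 0.0018 and 0.0026), r of -0.75 and -0.78 within the first and second 10 arrays, and -0.77 without the 2 farthest arrays. The second aldh1a2.L probe set had r = -0.20 and rho = -0.19 with the same markers (0.610 and 0.624), and r of -0.23 and -0.60 within the sets. With the cement gland markers (the cement gland is an anterior mucus-secreting organ) the first had r = -0.76 and rho = -0.67 (0.0023 and 0.020), and r of -0.79 and -0.90 within the sets, while the second had r = -0.51 and rho = -0.56 (0.082 and 0.062). The posterior neural and tailbud markers were cdx4, hoxb9, tbxt and msgn1, and cdx4 is also among the textbook retinoic acid targets read below. With these markers the 2 probe sets had the same direction. The first had r = 0.64 and rho = 0.50 (0.025 and 0.095), and r of 0.53 and 0.76 within the sets. The second had r = 0.60 and rho = 0.60 (0.036 and 0.044), and r of 0.78 and 0.63 within the sets. Levels of cyp26a1.L had r = 0.68 and rho = 0.78 with the posterior neural and tailbud markers (0.020 and 0.004), and r of 0.65 and 0.80 within the sets. Levels of rdh10.L had r = 0.65 and rho = 0.68 with the anterior neural markers (0.025 and 0.018), and r of 0.65 and 0.42 within the sets. For rarg.S and the neural plate markers r was -0.80 and rho -0.69 over all arrays (0.0018 and 0.018), but r was 0.32 in the first 10 and -0.83 in the second, so that relation did not hold within the first set. Levels of rara.L had r = 0.63 and rho = 0.62 with the paraxial mesoderm markers (0.028 and 0.038), and r of 0.58 and 0.66 within the sets. Some other relations that passed are not listed here. The part of tissue composition in the members' values was not tested.

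Likeness was searched for the highest-mean probe set of crabp2, cyp26a1, cyp26c1 and aldh1a2 only. The most similar probe sets of other genes over the 20 arrays were found by Pearson's r. For crabp2.L they were ebag9.S at 0.89, pym1.L at 0.85 and rbm45.S at 0.84. For cyp26a1.L the nearest was foxd4l1.1.S at 0.83, a forkhead factor of the early neural ectoderm, followed by fam168a.L at 0.80. For cyp26c1.S they were tspan3.S at 0.82 and nmd3.L at 0.79, and for aldh1a2.L irf5.L at 0.86 and b4galt3.S at 0.85. After the mean of each set of 5 was taken out, dnaja1.L was nearest to cyp26a1.L, at 0.89, followed by foxd4l1.1.S at 0.85. For crabp2.L the nearest was akr1b1.S at 0.92, followed by pym1.L and ebag9.S at 0.90 and 0.89. For cyp26c1.S and aldh1a2.L the probe sets named above were no longer among the 3 nearest. The nearest were then pwp2.S at 0.88 and wdr45b.S at 0.84.

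Further genes of the pathway were read from 3 lists. Of 30 other retinoid enzymes and binding proteins, 12 had a probe set, for 14 homeologous copies, and 3 copies passed the filter. Of 14 other receptors and co-factors, 7 had a probe set, for 8 copies, of which 7 passed. Of 36 textbook retinoic acid targets, 19 had a probe set, for 23 copies, of which 15 passed. None of these 25 copies passed limma's adjusted threshold against all controls with the mRNA or the morpholino, nor in the mRNA arrays against controls 1 to 5 with or without the replicate block. Of all tested probe sets 0% passed in these comparisons without the block, and 0.0671% with it. Nearest to the threshold in the blocked fit were znf703.S at 0.61 (limma adjusted p = 0.247) and meis3.S at 0.50 (0.268), a Meis homeobox factor of the hindbrain.

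Between the mRNA and morpholino arrays 3 of the 25 copies were lower with the mRNA by the test and none was higher. They were nr6a1.S, an orphan nuclear receptor known to be induced by retinoic acid, at -2.27 (limma adjusted p = 0.022), adh5.L, a class III alcohol dehydrogenase, at -1.14 (0.029), and rxrb.L, a retinoid X receptor and partner of the retinoic acid receptors, at -0.91 (0.020). The rxrb.L difference between the mRNA arrays and controls 1 to 5 was 0.03 ± 0.10, so its values moved with the control sets as well. With the array set as a block, 0 probe sets of the whole array passed between mRNA and morpholino. Between the control sets 4 of 25 passed: rxrg.L at 1.72 (limma adjusted p = 0.000378), rxrb.L at 0.92 (0.000171) and hoxc5.L at 0.93 (adjusted p = 0.033) were higher in controls 6 to 10, and zic5.S, a zinc finger factor of the neural plate border, was lower at -1.29 (0.004). The rxrg.L, hoxc5.L and rxrb.L probe sets had mean levels of 3.97, 4.16 and 4.54, near the filter. The other copy of rxrb, rxrb.S, had a mean level of 6.13 and did not pass in either comparison. These shares, 3 and 4 of 25, stand beside the 13.3% and 23.1% of the whole array given above. Over the 15 target copies the median difference was 0.17 with the mRNA and 0.09 with the morpholino against all controls, and 0.33 between the control sets, where 1 copy was higher and 1 lower by the test.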

How the data were processed

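Each array was an Affymetrix Xenopus laevis genome array of one RNA sample, and the values are the log2 probe set signals that the authors deposited; per the submitters' processing notes they were made with GCRMA, with neither its version nor an annotation build stated there. Of 15611 probe sets in the file, 120 are controls of the array and were not tested, and 0 sample columns went unused. Of the gene probe sets, 9304 had 1 symbol and 195 several in the platform table, and no gene was named from a probe set with several. Groups came from the sample labels.

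Group differences came from moderated linear models (limma 3.58.1, run under R 4.3.3; Benjamini-Hochberg adjustment over the 10435 probe sets above log2 4 in at least 5 arrays, threshold 0.05). The first 3 comparisons shared 1 fit over the 20 arrays, and the other 2 used 10 arrays each. Exact permutation tests were used for within-array ratios and pair differences, and 100000 permutations for correlations. The code was tested on simulated data. A fold is that of the array signal, and saturation or background limits at the probe level were not analysed here. The number of arrays limits the precision.

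Replicate numbers were checked as pairs by correlating deviations from the group means: r was 0.226 to 0.634 for mRNA arrays with same-numbered controls, over 0.1 in 5 of 5, so these were taken as paired. It was 0.059 to 0.281 for morpholino arrays with controls 1 to 5, over 0.1 in 4 of 5. With controls 6 to 10 it was -0.185 to 0.132, over 0.1 in 1 of 5. The morpholino arrays were therefore not taken as paired with controls. For mRNA with same-numbered morpholino arrays r was -0.089 to 0.244, over 0.1 in 3 of 5.

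The genes, the further lists, the markers and the tests were chosen with earlier results of these data known. All probe sets of the 8 genes are named, aldh1a2 being summarised by the one with the higher mean. Of the further lists, up to 4 genes with the smallest p per comparison could be named. The alternatives were quantile normalisation, median centring, no filter, a filter at log2 6, array weights, the replicate number or the array set as a block, each control set alone, leaving out the arrays whose tracer was discordant with the label, and leaving out each array in turn.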

Additional observations from a re-analysis of the deposited data

Results flagged for a closer look

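In 2 of the 33 sets of 5 or 10 arrays looked at, 1 array stood apart from the others, and chance sets about 1 in 20 apart. The cyp26c1.S level of mRNA 1 was 7.41, and the nearest of the other mRNA arrays was 8.39. The gap took up 0.782 of the group's whole range, above the critical 0.710. The rarg.S level of mRNA 3 was 11.2, the nearest other mRNA array was at 10.96, and the gap took up 0.721 of the range. The cause of neither was tested.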

How the results depend on the processing

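Of 1320 values recomputed under an alternative, 1193 kept their direction and side of the threshold, 97 changed sign, 15 passed the threshold in the alternative alone and 15 in the main setting alone. Part of this agreement was fixed in advance. Leaving out an array of neither compared group cannot move a difference. The comparison of mRNA with controls 1 to 5 held no discordant array to leave out. The causes of the changes were not tested. Most sign changes were of differences smaller than their SE, and the number of arrays, 5 per set, limits the precision.

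The number of the 11 probe sets called went from 0 to 1 with array weights in mRNA against all controls (rdh10.S) and from 0 to 1 without the discordant arrays in morpholino against all controls (cyp26c1.S). In mRNA against morpholino it went from 0 to 1 with no filter (dhrs3.L) or without the discordant arrays (cyp26c1.S), to 2 with quantile normalisation, to 3 with median centring or array weights and to 4 with the replicate block, whose numbers pair these groups in 3 of 5 cases only. Under quantile normalisation the 2 were rdh10.S and dhrs3.L. Median centring and array weights each added cyp26a1.L, and the replicate block added the second aldh1a2.L probe set as well. The number called stayed at 0 in every alternative run for mRNA against controls 1 to 5. Between the control sets it went from 3 to 2 under the filter at log2 6, quantile normalisation or median centring and to 0 without the discordant arrays, and was 1 to 3 with 1 array left out, the 1 being without control 6. Over all tested probe sets the count in mRNA against morpholino was 1389 of 10435. It was 772 of 8001 under the filter at log2 6 and 2186 of 15491 with no filter. With all 10435 tested, it was 1405 with quantile normalisation and 1395 with median centring. It was 2851 with array weights, 2885 with the replicate block and 0 with the array set as a block. The last is a difference taken relative to the controls of each set. Against all controls the count was 0, but with the mRNA it was 6 under the filter at log2 6, 1242 under array weights and 3161 with controls 6 to 10 alone. With the morpholino it was 2142 with the replicate block and 1628 with controls 1 to 5 alone. Controls 6 to 10 share no replicate number with an injected array, so that block reduces the difference to one from controls 1 to 5. The morpholino arrays were not taken as paired with those controls. Between the control sets the count was 2414 of 10435. There it was 1425 of 8001 under the filter at log2 6, 2316 with quantile normalisation and 2354 with median centring.

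Sign changes in mRNA against all controls were 0.01 for cyp26a1.S, 0.17 for the first aldh1a2.L probe set and -0.14 for rdh10.L without the discordant arrays, and -0.13 for cyp26a1.L with controls 6 to 10 alone. With the replicate block and with the array set as a block they were 0.21 for the first aldh1a2.L probe set, -0.15 for rdh10.L and 0.03 for rarg.S. Both blocks reduce that comparison to the difference from controls 1 to 5. In morpholino against all controls, rarg.S was -0.01 with quantile normalisation and -0.04 with median centring. Array weights gave -0.02 for the first aldh1a2.L probe set, 0.11 for rdh10.L, 0.12 for rara.L and -0.02 for rarg.S. Without the discordant arrays cyp26a1.L was 0.02 and the second aldh1a2.L probe set 0.37. With the array set as a block, and also with controls 6 to 10 alone, crabp2.L was 0.02, cyp26c1.S 0.11, the first aldh1a2.L probe set -0.25, rdh10.L 0.29, rara.L 0.04 and rarg.S -0.17.

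In mRNA against morpholino, crabp2.L was 1.01, cyp26c1.S 1.78 and the second aldh1a2.L probe set -0.11 without the discordant arrays, and with the array set as a block the first aldh1a2.L probe set was 0.46, rdh10.L -0.44 and rarg.S 0.20. The values with that block are relative to the controls of each set. In mRNA against controls 1 to 5, rarg.S was -0.01 with median centring. Between the control sets, cyp26a1.S and the second aldh1a2.L probe set were -0.03 and -0.07 with quantile normalisation and -0.10 and -0.12 with median centring. Array weights gave -0.04 for cyp26a1.S and 0.06 for rdh10.S, and without the discordant arrays cyp26a1.S was -0.22, the second aldh1a2.L probe set -0.54, rdh10.S 0.45 and rara.L 0.07.

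With 1 array left out, signs changed within these ranges. Against all controls the mRNA gave -0.01 to 0.13 for cyp26a1.L, -0.15 to 0.06 for cyp26a1.S and -0.23 to 0.07 for the first aldh1a2.L probe set. The morpholino gave -0.71 to 0.11 for crabp2.L, -0.46 to 0.38 for cyp26c1.S, -0.02 to 0.15 for the first aldh1a2.L probe set, -0.09 to 0.09 for rdh10.L, -0.18 to 0.00 for rdh10.S, -0.21 to 0.26 for rara.L and -0.10 to 0.10 for rarg.S. In mRNA against morpholino the range was -0.74 to 0.08 for crabp2.L and -0.69 to 0.15 for cyp26c1.S, and in mRNA against controls 1 to 5 it was -0.25 to 0.23 for cyp26a1.S and -0.03 to 0.06 for rarg.S. Between the control sets it was -0.18 to 0.30 for cyp26a1.S, -0.11 to 0.16 for the second aldh1a2.L probe set, -0.11 to 0.09 for rdh10.S, -0.10 to 0.04 for dhrs3.L and -0.30 to 0.10 for rara.L. In mRNA against controls 1 to 5, crabp2.L kept its sign with any 1 array left out, at -1.10 to -0.73.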
